A study of Homo sapiens with 12 samples.

Results

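The extracellular matrix genes FN1, VCAN, HAS2, HAPLN1, SPARC, POSTN, TNC, FBN1 and FBN2 were followed through blood differentiation of human embryonic stem cells. They were taken from the expression table by symbol. All 9 were found among 56593 distinct symbols, each on 1 line, and all 9 reached 1 FPKM in at least 3 libraries and so were among the 14840 genes tested. POSTN did so only through its level in APLNR+ libraries. FPKM divides the fragments of a gene by transcript length and by the mapped total, so levels of different genes can be set side by side.

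RNA was sequenced from 4 populations with 3 libraries each, 12 in total, all from H1, an established human embryonic stem cell line. Undifferentiated H1 cells were compared with APLNR+ mesoderm cells (day 2), CD31+CD34+ hemogenic endothelial progenitors (HEPs, day 5) and CD43+ hematopoietic progenitors (HPCs, day 8). The derived cells had been treated with activin A and BMP4 and then, after day 2, with VEGF and bFGF in Custom mTeSR1 medium. The populations are defined by surface proteins, come from 1 line in culture, and the labels do not say whether the 3 libraries came from separate cultures, so p values measure the spread between these libraries, which may be technical.

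Fibronectin is secreted as a dimer and drawn into fibrils by integrins on the cell surface. Hyaluronan is a long sugar polymer made at the plasma membrane by the HAS enzymes, and the proteoglycan versican (VCAN) is tied to it by link protein (HAPLN1). Matricellular proteins such as SPARC, periostin (POSTN) and tenascin-C (TNC) sit in the matrix and modulate adhesion rather than bear load, and the fibrillins FBN1 and FBN2 form microfibrils. In the embryo this kind of matrix surrounds migrating mesoderm and the cushions and vessels that form from it.

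The labels were checked first against stage markers. Mean APLNR was 0.528 FPKM before differentiation and 383 FPKM in the APLNR+ libraries. PECAM1 (CD31) and CD34 went from 0.0997 and 0.981 FPKM there to 55.2 and 47.7 FPKM in the CD31+CD34+ libraries, and SPN (CD43) from 3.70 FPKM in those to 75.5 FPKM in the CD43+ libraries. Each population thus held the markers it was named for, though these were not confined to it. Mean APLNR was 403 FPKM in CD31+CD34+ cells, and mean PECAM1 was 95.9 FPKM in CD43+ cells. PTPRC (CD45), a pan-leukocyte gene, was at most 0.521 FPKM in CD43+ cells. The summed FPKM of a library ran from 568036 to 1576040. Replicate 1 libraries of different populations deviated from their means in a like direction (correlations from 0.20 to 0.43 over genes), and 52 of the 54 differences between populations described here had the same sign in replicate 1 alone and in replicates 2 and 3. The 2 exceptions were VCAN between CD31+CD34+ and APLNR+ cells and POSTN between CD31+CD34+ cells and H1, neither of which was called. FPKM carries no read totals, so the depth of the libraries is unknown.

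At the step from H1 to APLNR+ cells most of the matrix genes rose, with 8 of 9 raised and 1 (VCAN) lowered. Among all genes tested, 8.3% were raised and 7.62% lowered. Called means a 2-fold or larger difference of log2(FPKM + 1) with a limma adjusted p below 0.05, a scale on which the changes of low genes come out too small. From APLNR+ to CD31+CD34+ cells FN1 and HAPLN1 were raised (2 of 9, against 12.5% of all genes) and HAS2 and POSTN were lowered (2 of 9, against 17.1%). The other 5 were not called, so that 4 of 9 were called where 29.6% of all genes were. With 9 genes, these counts lay near those shares. From CD31+CD34+ to CD43+ cells 8 of 9 were lowered and 0 raised, where 8.79% of all genes were lowered and 5.58% raised, by limma. POSTN, near 0 in both populations, was the exception. In bulk populations fewer cells that express a gene and less RNA per cell cannot be told apart.

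**Figure D1:**
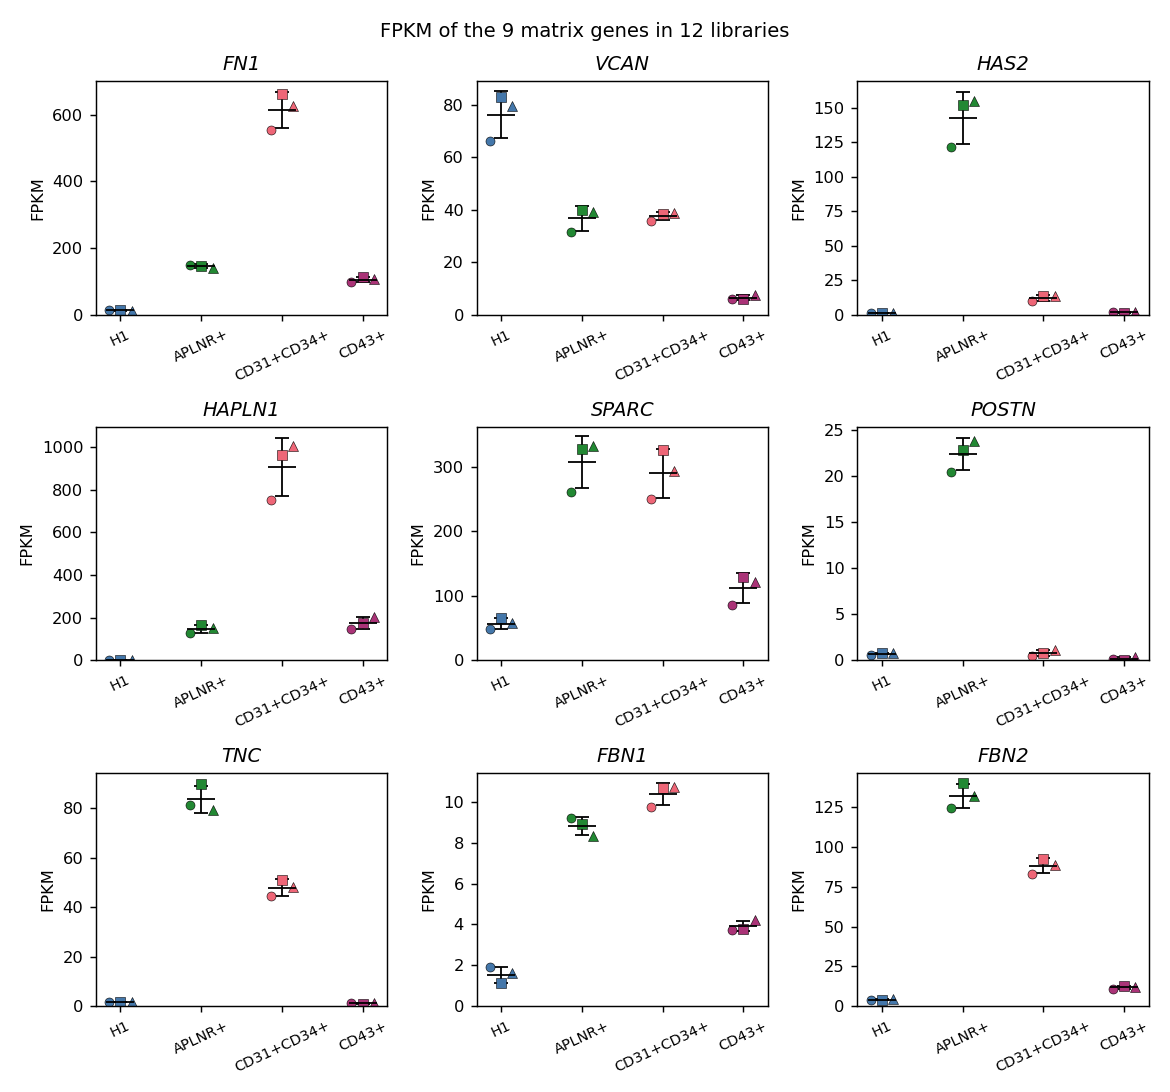
FPKM of each gene (vertical axes, linear from 0, each with its own range) in the 12 libraries, by population. Circles, squares and triangles are replicates 1, 2 and 3, and the bars are the mean and SD of 3 libraries. FN1 and HAPLN1 stand highest in CD31+CD34+ cells, HAS2 and POSTN in APLNR+ cells, VCAN in H1, and TNC, FBN2, FBN1 and SPARC stand above both ends in the middle populations.

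**Figure D2:**
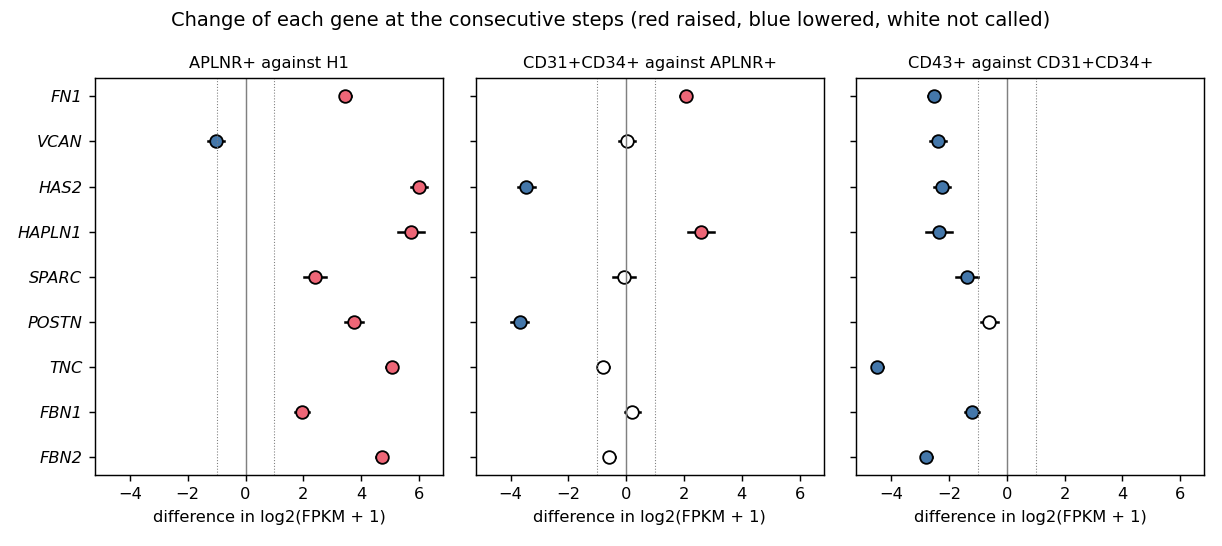
Difference in log2(FPKM + 1) of each gene at the 3 consecutive steps, with 95% confidence intervals from limma. Red points were raised, blue lowered and white not called, and dotted lines mark a 2-fold change. Of the 9 genes, 8 lie to the right at the first step and all lie to the left at the last, POSTN within the 2-fold lines.

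The median log2 change of the 9 genes was 3.76 from H1 to APLNR+ cells, where the median of all genes tested was -0.12. It was -0.08 at the step to CD31+CD34+ cells and -2.36 at the step to CD43+ cells, where the medians of all genes were -0.01 and -0.00. In CD43+ cells compared with H1, 3 members were raised (FN1, HAPLN1 and FBN2), VCAN was lowered and 5 were not called. With upper-quartile scaling, with quantile normalization and with replicates 2 and 3 alone, 5 were raised and 1 lowered, SPARC and FBN1 passing the 2-fold limit. Among all genes in this comparison 14.6% were raised and 22.5% lowered, 37.1% in all. With 9 genes, the total of 3 raised and VCAN lowered lay near that 37.1%. Quantile normalization moved the median of all genes in this comparison from -0.10 to 0.02, and the other medians by less than 0.1.

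For the pairs of populations that are not neighbours in time, 7 members were raised and 0 lowered in CD31+CD34+ cells against H1, where 16.9% of all genes were raised and 23.2% lowered (40.1% called). In CD43+ against APLNR+ cells 0 were raised and 6 lowered, where 14.1% of all genes were raised and 19.4% lowered (33.6% called). The 3 libraries of one population lay wholly above or below those of the other for 9 of 9 members in APLNR+ cells against H1 (66.0% of all genes), for 7 in CD31+CD34+ against APLNR+ cells (75.7%) and for 9 in CD43+ against CD31+CD34+ cells (58.0%). The same held for 9 members in CD43+ cells against H1 (76.3%), 8 in CD31+CD34+ cells against H1 (79.0%) and 8 in CD43+ against APLNR+ cells (75.4%). Such separation was common among all genes. At the first and last steps 9 and 8 of the 9 members were called, where 15.9% and 14.4% of all genes were.

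FN1 encodes fibronectin. Its libraries had 12.4, 12.9 and 12.1 FPKM in H1, then 150.3, 147 and 141 FPKM in APLNR+ cells, 555, 661 and 627 FPKM in CD31+CD34+ cells, and 97.1, 112 and 106 FPKM in CD43+ cells. No population overlapped another. The ratio of means was 11.7 at the first step and 4.21 at the second, and the level in CD31+CD34+ cells was 5.84 times that in CD43+ cells. The log2 changes were 3.45 ± 0.09 (SE, limma adjusted p 2.2e-11), 2.06 ± 0.09 (1.64e-09) and -2.53 ± 0.09 (6.26e-10). APLNR+ and CD43+ cells were neighbours in the order of its levels, with a log2 difference (CD43+ minus APLNR+) of -0.47 (95% interval -0.66 to -0.28, adjusted p 0.000363) that did not reach 2-fold. In rank, FN1 moved from 4888 of the 14840 tested genes in H1 to 138 in CD31+CD34+ cells.

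HAPLN1 encodes the link protein that locks versican onto hyaluronan, and it had the largest log2 difference between any 2 populations of the 9 genes. It had 2.92, 1.16 and 1.52 FPKM in H1, then 128, 164 and 152 FPKM in APLNR+ cells, 749, 963 and 1003 FPKM in CD31+CD34+ cells and 146, 177 and 204 FPKM in CD43+ cells. The means of CD31+CD34+ cells and H1 differed 485-fold, a log2 change of 8.34 ± 0.21 (SE, adjusted p 9.88e-12). CD43+ cells (176 ± 29.1 FPKM, SD, n = 3) and APLNR+ cells (148 ± 18.1 FPKM) overlapped, and their log2 difference was 0.24 with a 95% interval from -0.21 to 0.69. Its rank among tested genes went from 11251 in H1 to 97 in CD31+CD34+ cells. HAPLN1 and FN1 were the 2 members raised at both of the first steps and lowered at the third.

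VCAN encodes versican, a large hyaluronan-binding proteoglycan, and it was the member that started high. H1 libraries had 66.0, 82.9 and 79.4 FPKM, APLNR+ libraries 31.3, 39.7 and 38.9 FPKM, CD31+CD34+ libraries 35.6, 38.5 and 38.6 FPKM and CD43+ libraries 5.98, 5.80 and 7.64 FPKM. The H1 libraries lay above all others and the CD43+ libraries below all others, while the middle populations overlapped (log2 difference 0.04, 95% interval -0.23 to 0.32, adjusted p 0.774). The fall at the first step, -1.04 ± 0.13 (SE, adjusted p 2.26e-05), lies at the 2-fold limit: it was -0.93 without APLNR+ replicate 1, -0.97 without H1 replicate 2, -0.93 with upper-quartile scaling and -0.85 with quantile normalization, none of which was called. The fall from CD31+CD34+ to CD43+ cells was -2.38 ± 0.13 (adjusted p 1.88e-08). CD31+CD34+ cells and H1 differed by -0.99, short of 2-fold, and by -1.09 without H1 replicate 1, -1.01 without CD31+CD34+ replicate 2 or 3, -1.01 with a pseudocount of 0.1 and -1.05 with replicates 2 and 3 alone, each of which was called. Between the ends of the series VCAN fell 11.8-fold.

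In RefSeq's gene order VCAN and HAPLN1 are neighbouring protein-coding genes on chromosome 5, with XRCC4 on the other side of VCAN and EDIL3 on the other side of HAPLN1. Their transcripts moved in opposite directions at the first step and in the same direction at the last. The log2 ratio of HAPLN1 to VCAN (each as FPKM + 1) within a library was -4.79 ± 0.62 in H1 (SD, n = 3), 1.98 ± 0.04 in APLNR+ cells, then 4.54 ± 0.16 in CD31+CD34+ cells and finally 4.56 ± 0.16 in CD43+ cells. Versican RNA thus exceeded link protein RNA in H1 libraries and the order was inverted in the 9 others. CD31+CD34+ and CD43+ cells overlapped in this ratio (difference 0.02, exact two-sided permutation p 0.8). The other 5 pairs of populations did not overlap and gave p = 0.1, the smallest an exact test of 3 against 3 libraries can give (0.106 after Benjamini-Hochberg adjustment over the 18 ratio tests made).

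The promoters of FN1, HAPLN1, VCAN and POSTN are shown as examples of 3 courses: a peak in CD31+CD34+ cells (FN1 and HAPLN1), a fall from H1 (VCAN) and a high level in APLNR+ cells alone (POSTN). Each is the 250 bases before the transcription start, 5′ to 3′ on the gene's strand, from RefSeq on GRCh38.p14, a later build than the hg19 named in the submitters' processing notes. Capitals mark matches on either strand to any of 6 motifs. The E-box searched was CAGGTG and the GC box was GGGCGG. The TATA box was TATAAA, and the CCAAT motif was its own letters. The GATA motif was AGATAA. The partial cAMP response element was TGACGT.
FN1, chr2:215436069-215436318, minus strand: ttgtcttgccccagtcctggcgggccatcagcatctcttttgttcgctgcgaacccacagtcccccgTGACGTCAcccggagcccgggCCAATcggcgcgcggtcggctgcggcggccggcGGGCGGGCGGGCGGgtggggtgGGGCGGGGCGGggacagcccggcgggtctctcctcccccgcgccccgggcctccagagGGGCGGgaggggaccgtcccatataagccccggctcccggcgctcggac
HAPLN1, chr5:83720856-83721105, minus strand: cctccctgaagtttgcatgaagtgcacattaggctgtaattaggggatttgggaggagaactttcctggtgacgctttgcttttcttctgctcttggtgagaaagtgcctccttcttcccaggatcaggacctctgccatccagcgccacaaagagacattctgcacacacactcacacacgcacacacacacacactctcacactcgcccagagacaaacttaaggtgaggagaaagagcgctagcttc
VCAN, chr5:83471494-83471743, plus strand: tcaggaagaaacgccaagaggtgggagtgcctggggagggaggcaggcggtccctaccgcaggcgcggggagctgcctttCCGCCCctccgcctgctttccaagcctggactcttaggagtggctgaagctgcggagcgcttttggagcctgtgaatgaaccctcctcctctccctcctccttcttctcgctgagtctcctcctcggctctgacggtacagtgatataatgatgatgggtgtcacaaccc
POSTN, chr13:37598769-37599018, minus strand: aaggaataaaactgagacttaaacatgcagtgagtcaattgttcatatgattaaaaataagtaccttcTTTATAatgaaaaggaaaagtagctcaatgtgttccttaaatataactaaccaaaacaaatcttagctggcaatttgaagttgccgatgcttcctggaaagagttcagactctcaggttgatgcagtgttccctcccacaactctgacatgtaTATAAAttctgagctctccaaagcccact

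The promoter of FN1 was the densest in these letters. It held 6 GC boxes, some overlapping each other, 1 CCAAT and TGACGT on both strands, overlapping, between bases -183 and -176 counted back from the start. TGACGT was found in 7.1% of 35116 promoters of this length. The FN1 and POSTN windows differ in base composition, with 76.4% and 36.4% G and C. POSTN held TATAAA at bases -29 to -24 and again, on the other strand, at -182 to -177, a motif present in 10.7% of promoters. HAPLN1 held none of the 6 motifs and VCAN 1 GC box. RefSeq promoters were matched for 8 of the 9 genes. GGGCGG occurred in 4 of the 8 and in 42.6% of all promoters, CCAAT in 2 of the 8 and in 32.0% of all, CAGGTG in 0 of the 8 and in 17.5% of all, and AGATAA in 0 of the 8 and in 9.17% of all. A match is a match of letters only, and its absence says that the letters are not in this window.

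HAS2 encodes the hyaluronan synthase that is essential in the early embryo. It had 1.31, 1.15 and 1.23 FPKM in H1, then 121, 152 and 155 FPKM in APLNR+ cells, 9.94, 13.2 and 13.4 FPKM in CD31+CD34+ cells, and 1.75, 1.49 and 2.01 FPKM in CD43+ cells. It thus rose 116-fold and then fell 11.7-fold and 6.94-fold at the following steps, with log2 changes of 6.00 ± 0.13, -3.45 ± 0.13 and -2.25 ± 0.13 (SE, limma adjusted p 9.42e-12, 6.55e-10 and 3.96e-08). The first of these was the largest change of any member at a consecutive step. CD43+ and H1 libraries were neighbours in order and did not overlap, with a log2 difference of 0.30 (95% interval 0.01 to 0.59, adjusted p 0.0561). HAS2 RNA therefore stood at its peak one population before HAPLN1.

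The other synthases were looked up after these values had been seen. HAS3 had 11.6, 7.54 and 7.87 FPKM in H1 libraries, and its mean in APLNR+ cells was 0.821 ± 0.238 FPKM (SD, n = 3), a log2 change of -2.44 ± 0.16 (adjusted p 7.92e-08), so the synthase with the higher level was HAS3 in H1 and HAS2 in APLNR+ cells. HAS1 stayed at or under 0.333 FPKM in the 12 libraries and did not enter the tests. UGDH, which makes the UDP-glucuronate that the synthases use, had 18.0 ± 0.661 and 16.5 ± 0.483 FPKM in the same populations (log2 difference -0.12, adjusted p 0.445) and fell at the second step (-1.17, 3.77e-06).

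SPARC encodes a collagen-binding matricellular protein and was the most abundant member in APLNR+ cells. Its libraries had 48.3, 64.9 and 57.3 FPKM in H1, then 260.2, 328 and 331 FPKM in APLNR+ cells, 249, 326 and 293 FPKM in CD31+CD34+ cells and 85.5, 128 and 122 FPKM in CD43+ cells. The middle populations overlapped (log2 difference -0.08, 95% interval -0.45 to 0.29) and both lay above the ends. The rise was 2.41 ± 0.17 (SE, adjusted p 1.75e-07) and the fall -1.38 ± 0.17 (2.96e-05). CD43+ libraries stayed above H1 libraries by 0.95, short of 2-fold, and by 1.13 without CD43+ replicate 1, 1.05 without H1 replicate 2, 1.06 with upper-quartile scaling, 1.04 with quantile normalization and 1.02 with replicates 2 and 3 alone, each of which was called.

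POSTN encodes periostin, a secreted protein that binds integrins, fibronectin and tenascin-C. It was high in a single population, with 20.4, 22.9 and 23.9 FPKM in APLNR+ cells, against 0.630, 0.781 and 0.779 FPKM in H1, 0.501, 0.827 and 1.15 FPKM in CD31+CD34+ cells and 0.123, 0.0799 and 0.354 FPKM in CD43+ cells. The log2 changes were 3.76 ± 0.14 (SE, adjusted p 4.09e-10) and -3.69 ± 0.14 (4.98e-10) on either side of the peak. POSTN passed the filter for testing only through its APLNR+ libraries, so these p values are no independent support for that peak. CD31+CD34+ cells and H1 overlapped (log2 difference 0.06, 95% interval -0.23 to 0.36). The further difference at the step to CD43+ cells was -0.62 (adjusted p 0.00228), under the 2-fold limit. With a pseudocount of 0.1 it was -1.75, and the difference between CD43+ cells and H1 went from -0.55 to -1.65, both then called.

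TNC encodes tenascin-C, a large glycoprotein that binds fibronectin and loosens adhesion to it. It had 1.58, 1.52 and 1.54 FPKM in H1, then 81.4, 89.9 and 79.4 FPKM in APLNR+ cells, 44.5, 51.1 and 48.2 FPKM in CD31+CD34+ cells and 1.25, 1.08 and 1.26 FPKM in CD43+ cells. The 2 middle populations stood well above both ends and did not overlap each other. The log2 change was 5.05 ± 0.09 (SE, adjusted p 1.56e-12) at the first step, -0.79 ± 0.09 (4.88e-06, not 2-fold) at the second and -4.48 ± 0.09 (5.96e-12) at the third. That last fall, 40.1-fold between means, was the largest of any member at this step and brought TNC to 0.22 below H1 on the log2 scale (95% interval of CD43+ minus H1 -0.40 to -0.03, adjusted p 0.0384).

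TNC and FN1 therefore parted after the APLNR+ stage. The log2 ratio of TNC to FN1 (each as FPKM + 1) within a library was -2.40 ± 0.06 in H1 (SD, n = 3), -0.80 ± 0.09 in APLNR+ cells, then -3.65 ± 0.03 in CD31+CD34+ cells and finally -5.59 ± 0.16 in CD43+ cells. In FPKM without the added 1, TNC was from 0.541 to 0.614 of FN1 in APLNR+ libraries and from 0.00965 to 0.0129 of it in CD43+ libraries. No pair of populations overlapped in this ratio (exact two-sided permutation p = 0.1 for each, the smallest possible, 0.106 adjusted).

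FBN1 and FBN2 encode fibrillins, and FBN2 is known as the form of embryonic tissues. FBN2 had 3.83, 3.94 and 4.42 FPKM in H1, then 124, 139.8 and 132 FPKM in APLNR+ cells, 83.1, 92.5 and 88.6 FPKM in CD31+CD34+ cells, and 11.0, 12.5 and 11.9 FPKM in CD43+ cells. FBN1 had 1.90, 1.13 and 1.60 FPKM in H1, then 9.18, 8.92 and 8.34 FPKM in APLNR+ cells, 9.74, 10.7 and 10.7 FPKM in CD31+CD34+ cells, and 3.74, 3.80 and 4.21 FPKM in CD43+ cells. FBN2 was the more abundant fibrillin in each of the 12 libraries, and both were highest in the middle populations. FBN2 rose by 4.72 ± 0.09 (SE, adjusted p 1.91e-12) and fell by 2.79 ± 0.09 (2.44e-10) at the last step on the log2 scale, after a difference of -0.58 (6.42e-05) that was not 2-fold. FBN1 differed by 1.96 ± 0.11 (2.79e-08) at the first step and -1.21 ± 0.11 (2.59e-06) at the last, and by 0.21 (95% interval -0.03 to 0.46, adjusted p 0.108) between them.

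The balance of the fibrillins shifted with the stages. The log2 ratio of FBN2 to FBN1 (each as FPKM + 1) was 1.00 ± 0.24 in H1 (SD, n = 3), 3.76 ± 0.12 in APLNR+ cells, then 2.97 ± 0.04 in CD31+CD34+ cells and finally 1.38 ± 0.10 in CD43+ cells. In FPKM without the added 1, FBN2 was from 2.02 to 3.48 times FBN1 in H1 libraries and from 13.6 to 15.8 times in APLNR+ libraries. The populations did not overlap in any pair in the log2 ratio of FPKM + 1 (exact two-sided permutation p = 0.1 for each, 0.106 adjusted). Without the added 1, the CD43+ libraries (2.83 to 3.30 times) lay within the range of H1. Between the ends of the series FBN2 was raised (1.34 ± 0.09, adjusted p 2.67e-08), and FBN1 differed by 0.96 ± 0.11 (7.5e-06), which is under 2-fold. It was called at 1.06 without H1 replicate 1, 1.03 with upper-quartile scaling, 1.14 with quantile normalization, 1.31 with a pseudocount of 0.1 and 1.09 with replicates 2 and 3 alone. Against APLNR+ cells, FBN1 in CD43+ cells differed by -0.998 (log2), just under the limit, and by -1.04 without CD43+ replicate 3, -1.03 without APLNR+ replicate 3 and -1.15 with a pseudocount of 0.1, each of which was called.

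**Figure D3:**
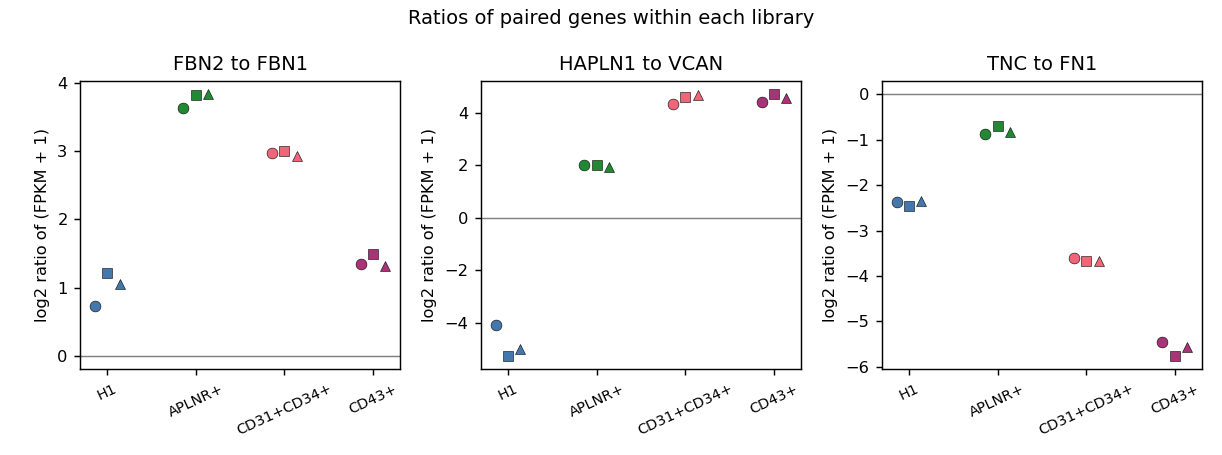
Log2 ratio of (FPKM + 1) of FBN2 to FBN1, HAPLN1 to VCAN and TNC to FN1 in each of the 12 libraries, with circles, squares and triangles for replicates 1, 2 and 3. FBN2 to FBN1 and TNC to FN1 peak in APLNR+ cells, while HAPLN1 to VCAN climbs from about -4.79 in H1 to 4.54 and 4.56 in the 2 later populations.

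Added together, the 9 genes averaged 156 FPKM in H1 (138.9 to 170.4 over 3 libraries). The sum was 1026 ± 87.7 FPKM (SD, n = 3) for APLNR+ libraries, 2006 ± 233 for CD31+CD34+ libraries and 418 ± 57.6 for CD43+ libraries. The libraries of no 2 populations overlapped, the closest being 170.4 FPKM in H1 and 353 FPKM in CD43+ cells. Which genes made up the sum changed as well. In H1, VCAN (48.6% ± 1.06) and SPARC (36.2% ± 1.69) held most of it. In APLNR+ cells it was spread over SPARC (29.8%), HAPLN1 (14.4%), FN1 (14.3%), HAS2 (13.9%) and FBN2 (12.9%). In CD31+CD34+ cells HAPLN1 (45.0% ± 2.07) and FN1 (30.7% ± 1.21) led. In CD43+ cells HAPLN1 (42.0%) was followed by SPARC (26.6%) and FN1 (25.3%), whose libraries overlapped in share.

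**Figure D4:**
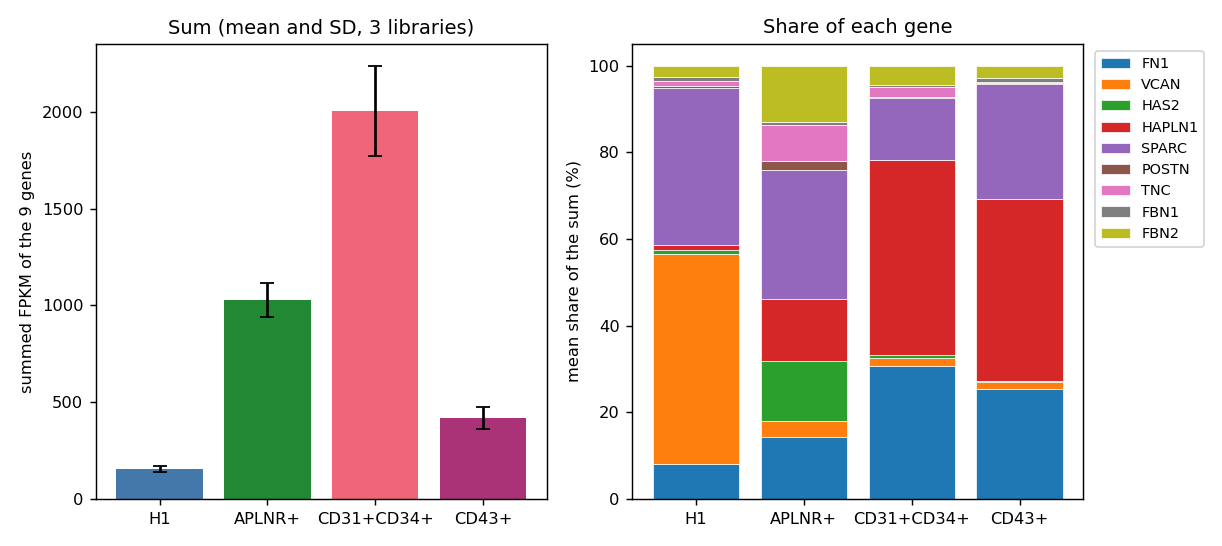
Left, summed FPKM of the 9 genes in each population (bars from 0, mean and SD of 3 libraries). Right, the mean share of each gene in that sum, in percent. The sum rises from 156 in H1 to 2006 in CD31+CD34+ cells and is 418 in CD43+ cells, and the leading gene passes from VCAN to SPARC to HAPLN1.

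Markers of other cells were read in the same libraries, since matrix genes are strong in stromal cells. The list of 8 mural and fibroblast genes (PDGFRB, ACTA2, TAGLN, COL1A1, COL3A1, PDGFRA, LUM and DCN) summed to between 78.0 and 109 FPKM in H1, 444 and 587 in APLNR+ cells, then 374 and 449 in CD31+CD34+ cells and finally 119 and 147 in CD43+ cells, with 4, 6, 6 and 7 of the 8 at a mean of 1 FPKM or more. TAGLN made up most of it in the first 3 populations (466 ± 69.7 FPKM in APLNR+ cells) and had 15.7 ± 1.57 FPKM in CD43+ cells, while DCN had a mean of 0 in H1 and of at most 0.0726 FPKM in the other populations, and LUM at most 2.69 FPKM. PDGFRA and LUM were, like TAGLN, highest in APLNR+ cells, while ACTA2, COL3A1, PDGFRB and COL1A1 did not follow it. ACTA2 (0.922, 1.53, 13.3 and 34.8 FPKM in the order of the stages), COL3A1 (0.520, 24.2 and 44.2 FPKM from APLNR+ cells on) and PDGFRB (3.12, 11.4, 13.2 and 17.5 FPKM) were highest in CD43+ cells, COL1A1 in CD31+CD34+ cells (85.0 FPKM) and PDGFRA in APLNR+ cells (18.8 FPKM). Without TAGLN, a sum taken after its level had been seen, the other 7 came to between 12.2 and 14.7 FPKM in H1 libraries, 44.9 and 48.8 in APLNR+ libraries, 128 and 149 in CD31+CD34+ libraries and 103 and 129.8 in CD43+ libraries. The part of such cells in the levels of the 9 members was not tested. In CD43+ cells, 5 endothelial genes (PECAM1, CDH5, CD34, KDR and TEK) still summed to between 236 and 317 FPKM, against 427 to 588 in CD31+CD34+ cells, and 4 megakaryocyte genes (GP9, PF4, GP1BA and PPBP) to between 71.1 and 98.7 FPKM, against 1.91 to 2.94. The part of endothelial or megakaryocyte cells in the FN1, HAPLN1 and SPARC levels of CD43+ libraries was not tested either. A list of 4 macrophage genes reached at most 5.97 FPKM, 1 of the 4 at a mean of 1 FPKM or more, and 5 endoderm genes at most 44.6 FPKM, in CD31+CD34+ cells.

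Partner genes were grouped in lists written from general knowledge. Of 20 fibronectin receptor and assembly genes 16 were tested, and 6 were raised and 0 lowered at the first step, 6 raised and 4 lowered at the second and 2 raised and 9 lowered at the third (medians 0.47, 0.31 and -1.17 on the log2 scale). Over all genes, 8.3% were raised and 7.62% lowered at the first step. The shares were 12.5% and 17.1% at the second and 5.58% and 8.79% at the third. ITGA5, the alpha chain of the main fibronectin receptor, followed FN1, rising from 6.46 ± 0.625 to 70.1 ± 4.13 and 169 ± 16.9 FPKM before it dropped to 45.5 ± 6.09, and was called at each step (log2 changes 3.25, 1.25 and -1.87). Its partner chain ITGB1, looked up after the values had been seen, had 84.0, 95.4, 81.7 and 34.2 FPKM and was called at the last step alone (log2 changes 0.18, -0.22 and -1.23, the last at an adjusted p of 4.54e-06). The alpha chain ITGAV, looked up at the same time, had 13.1, 38.4, 37.5 and 9.55 FPKM. It was called at the first and last steps (log2 changes 1.48, -0.03 and -1.87).

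Beta chains of other fibronectin-binding integrins went different ways. ITGB5 rose from 82.4 ± 13.4 to 179.6 ± 20.1 FPKM and fell to 61.5 and 9.36 FPKM, and ITGB3, the beta chain of the platelet fibrinogen receptor, went from 0.674 ± 0.0940 to 96.1 ± 11.0 FPKM at the last step (5.85 on the log2 scale, limma adjusted p 4.17e-12). FERMT2 (kindlin-2) was highest in APLNR+ cells at 112 FPKM, and ILK (integrin-linked kinase) in CD31+CD34+ cells at 162 FPKM. Both ITGB3 and the megakaryocyte markers stood highest in CD43+ cells.

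Of 27 genes of hyaluronan synthesis, turnover and binding 14 were tested. At the first step 2 were raised and 4 lowered, where 8.3% and 7.62% of all genes were. At the second 5 and 3 were (12.5% and 17.1% of all genes), and at the third 1 and 2 (5.58% and 8.79%). With 14 genes tested, the counts at the third step lay near these shares. The list medians were -0.25, 0.19 and -0.54. UGP2, which supplies UDP-glucose, fell from 333 ± 8.19 FPKM in H1 to 77.6, 10.2 and 6.29 FPKM, called at the first 2 steps (-2.09 and -2.81). The hyaluronan receptor CD44 rose from 2.84 ± 0.0987 to 6.95, 39.7 and 58.6 FPKM, called at the first 2 steps (1.05 and 2.36). The scavenger receptor STAB1, from the same list, rose by 5.33 at the second step (0.168 ± 0.0711 to 45.9 ± 2.74 FPKM, limma adjusted p 3.31e-12). The hyaluronidases HYAL2 and TMEM2 were highest in CD31+CD34+ cells, at 129.7 and 82.3 FPKM.

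Of 24 other matricellular genes 14 were tested, with 4 raised and 2 lowered, 3 raised and 5 lowered, and 1 raised and 3 lowered at the consecutive steps (medians 0.86, -0.49 and -0.41). The shares raised and lowered over all genes were 8.3% and 7.62%, 12.5% and 17.1%, and 5.58% and 8.79%. FSTL1, a relative of SPARC, had 89.3, 161, 228 and 64.8 FPKM and was called at the last step (-1.80, 1.56e-08). THBS1 (thrombospondin-1) rose at that step, where 8 members fell, from 5.52 ± 1.45 to 48.9 ± 4.10 FPKM (2.95, 1.31e-08). TGFBI, the closest relative of periostin, was highest in CD31+CD34+ cells at 17.3 FPKM and so did not share the APLNR+ peak of POSTN, while CYR61 (17.8 FPKM) and SPP1 (16.2 FPKM) were highest in APLNR+ cells.

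Of 26 microfibril and elastic fibre genes 22 were tested, with 6 raised and 0 lowered, 9 raised and 3 lowered, and 0 raised and 9 lowered (medians 0.51, 0.67 and -0.77). The medians of all genes at the same steps were -0.12, -0.01 and -0.00. Their shares raised and lowered were 8.3% and 7.62%, 12.5% and 17.1%, and 5.58% and 8.79%. MFAP4, a microfibril protein, was nearly confined to APLNR+ cells (0.451, 64.6, 1.00 and 0.134 FPKM). FBLN1 and FBLN2 (fibulins) and the crosslinking enzyme LOXL2 were highest in CD31+CD34+ cells at 87.7, 101 and 40.7 FPKM and were lowered at the last step (-2.40, -1.55 and -2.25). EMILIN1 rose at the second step (2.98) and was not called at the last, with 31.4 ± 5.80 FPKM in CD43+ cells.

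**Figure D5:**
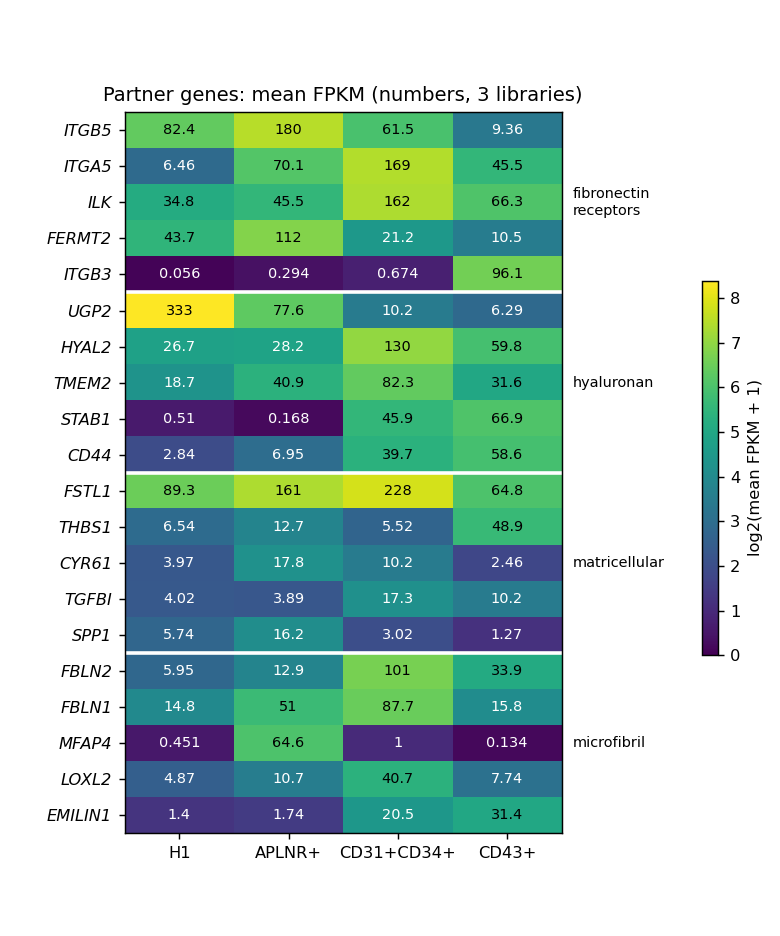
Mean FPKM (numbers, 3 libraries) of the 5 genes with the highest population mean in each partner list, colored by log2(mean FPKM + 1). ITGA5, ILK, HYAL2, TMEM2, FSTL1, FBLN1, FBLN2 and LOXL2 are highest in CD31+CD34+ cells, MFAP4 in APLNR+ cells, and ITGB3, THBS1, STAB1, CD44 and EMILIN1 in CD43+ cells.

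Genes with the most similar course over the 12 libraries were listed for each member by Pearson's r of log2(FPKM + 1), among 7717 other genes that averaged at least 10 FPKM in some population. The libraries form 4 groups, so r describes the pattern over the populations and carries no test. For HAS2 these were EOMES, a mesoderm transcription factor (r = 0.997), and SERPINE2 (0.997), a secreted protease inhibitor with 12.8, 399, 67.8 and 15.8 FPKM. For POSTN they were MFAP4 (0.996) and ZBTB10 (0.995), for FBN2 the mesoderm factors HAND1 (0.997) and MSX2 (0.997), and for HAPLN1 the coreceptor NRP1 (0.998) and the integrin chain ITGA9 (0.997). FN1 was close to the netrin receptor gene UNC5C (0.998), FBN1 to BMPER (0.994), TNC to PRODH (0.992) and BCAR3 (0.990), SPARC to KMT5A (0.990) and AMOTL1 (0.988), and VCAN to SYNE2 (0.990) and ALPL (0.989).

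Several of the values are sums over more than 1 transcript. GENCODE release 29 lists 27 transcripts for FN1, 14 for TNC and 12 for VCAN, and FPKM per gene does not separate their splice forms. Some members share exon bases with a gene on the opposite strand, and no source used here says that strand was read, so reads of such pairs cannot be told apart. The partners were listed low beside the members: VCAN-AS1 at 0 in the 12 libraries, HAS2-AS1 at up to 0.367 FPKM, CLMAT3 (opposite SPARC) at up to 0.306 FPKM and SLC27A6 (opposite FBN2) at up to 5.16 FPKM, in APLNR+ cells. These values come from the same reads, so they cannot show that the members' values are free of reads from the other strand. DEC1, opposite TNC, was not matched by symbol.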

How the data were processed

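Bulk RNA was measured in 12 libraries, 3 per population (H1, APLNR+, CD31+CD34+, CD43+), and samples were grouped by title. The authors deposited FPKM values for all libraries in 1 table. The submitters' processing notes name BWA, Bowtie, RSEM and hg19, with no role or version. Annotation, strand handling and scaling between libraries are not given in the sources used here. Of 58366 lines 1 held text and was dropped, and repeated symbols (345) were reduced to their line of highest mean, leaving 56593. Zeros may be failed estimates, since EEF1A1 had 0 FPKM in 6 libraries and at least 1839 FPKM elsewhere. None of the 108 member values was 0.

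All 14840 genes with 1 FPKM or more in at least 3 libraries were tested on log2(FPKM + 1). A limma model (version 3.58.1, R 4.3.3; functions lmFit, contrasts.fit and trended eBayes) held the 4 populations and no covariate, and p values were adjusted by Benjamini-Hochberg within each of 6 comparisons. Log2 ratios of FPKM + 1 were compared by exact permutation tests over libraries. The members and the lists were chosen with earlier results of these data known. Named genes are the members, the 5 highest genes of each list, the 2 genes most like each member (for FN1 and FBN1 1 of them is not reported here), the sorting markers, and a few genes stated as looked up later. Other steps used scipy 1.17.1, pandas 2.3.3 and numpy 2.4.6 under Python 3.11.15, and plots matplotlib 3.10.9. Alternatives were a pseudocount of 0.1, other filters and scalings, a replicate block, fits to the compared populations alone, no trend, no minimum change, replicates 2 and 3 alone and leaving out each library in turn.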

Additional observations from a re-analysis of the deposited data

How the results depend on the processing

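The 54 log2 changes of the members were recomputed under 22 alternatives, 1188 values, of which 1149 kept their direction and their side of the call. Of the others, 4 lost the call, all for VCAN from H1 to APLNR+ cells, 30 passed it newly and 5 reversed a change that was not called. In many of the 1188 values the log2 change could not move by construction. This held for the replicate block, other filters, no trend, the compared populations alone and no minimum change. It also held where a library of an uncompared population was left out. No minimum change could only add calls, and gave 10 of the 30. For VCAN from APLNR+ to CD31+CD34+ cells the log2 change was -0.140 with quantile normalization and -0.0278 with replicates 2 and 3 alone, and ran from -0.0644 to 0.103 as single libraries were left out (lowest without APLNR+ replicate 1). For SPARC at that step it ran from -0.195 to 0.0202 (highest without CD31+CD34+ replicate 1), and for POSTN in CD31+CD34+ cells against H1 from -0.0620 (without CD31+CD34+ replicate 3) to 0.199. The ratio of HAPLN1 to VCAN in CD43+ against CD31+CD34+ cells ran from -0.0756 (without CD31+CD34+ replicate 1) to 0.0993, and was -0.0581 without CD43+ replicate 2.

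Between CD43+ cells and H1, 4 members were called, 8 with no minimum change, and 6 with upper-quartile scaling, quantile normalization, a pseudocount of 0.1 or replicates 2 and 3 alone. Over all genes, 2363 were called for APLNR+ against H1, 4400 for CD31+CD34+ against APLNR+, 2133 for CD43+ against CD31+CD34+, 5501 for CD43+ against H1, 5955 for CD31+CD34+ against H1 and 4982 for CD43+ against APLNR+. With no minimum change these were 8594, 10948, 7961, 11076, 11473 and 10995. With a mean of at least 5 FPKM, which tests fewer genes, they were 1193 for APLNR+ against H1, 1313 for CD43+ against CD31+CD34+, 3309 for CD43+ against H1, 3752 for CD31+CD34+ against H1 and 3080 for CD43+ against APLNR+. A pseudocount of 0.1 gave 3632 for APLNR+ against H1 and 3605 for CD43+ against CD31+CD34+. Apart from limits moved by construction, the cause was not tested.

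The replicate numbers could not be shown to pair the libraries, though those of replicate 1 deviated alike. Deviations of libraries with the same number correlated from -0.02 to 0.43 (18 pairs), those of number 1 from 0.20 to 0.43. Pairs of different number ran from -0.40 to 0.29 (36 pairs), and 7 of 12 libraries were closest to one of their own number. With the number as a replicate block, 9, 4, 8, 4, 7 and 6 members were called in the same order of comparisons and 2369, 4410, 2140, 5506, 5960 and 4995 genes in all, and the calls of the 54 member changes were as without it. Precision rests on 3 libraries for each population, at a depth that FPKM does not show.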

Other observations

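Of the 9 members, replicate 1 had the lowest value of its population for all 9 in CD31+CD34+ cells, and for 4, 6 and 5 in H1, APLNR+ and CD43+ cells. Over all tested genes without a value of 0, the share lowest in replicate 1 was 55.5% in CD31+CD34+ cells, and 45.5%, 51.5% and 53.0% in the others. For HAPLN1 the log2 change from H1 to APLNR+ cells was 5.04 in replicate 1 and 6.09 in replicates 2 and 3, and H1 replicate 1 had the highest HAPLN1 value of its population (2.92 FPKM).

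APLNR+ cells held the highest mean of 5 members and of 18.2% of all genes tested. CD31+CD34+ cells held that of 3 members (24.6% of genes), H1 that of 1 (34.9%) and CD43+ cells that of 0 (22.4%).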
